A study of Mus musculus with 8 samples.

Results

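Gene deserts are long stretches between neighbouring protein-coding genes. The regions described here are the places in those deserts where 5-hydroxymethylcytosine (5hmC) was detected in mouse germinal center B cells. Peaks that overlapped or touched in any of the 4 deposited peak lists were merged into union regions on the 19 autosomes. A union region was kept when its midpoint lay more than 200 kb from the nearest protein-coding gene span. This gave 57395 of 341091 union regions (16.8%), in 715 deserts, at a median distance of 434 kb from a gene. The comparison of WT with KO was not used to choose them.

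The study profiled 5hmC by hMeDIP-seq, in which DNA fragments carrying 5hmC are captured with an antibody and sequenced. Germinal center B cells came from spleens of C57BL/6 mice that were either wild type (WT) or TET2 knockout (KO). Of 8 samples, 4 were immunoprecipitated libraries (2 per genotype), each with a peak list and called KO-2, KO-3, WT-2 and WT-3 here by genotype and replicate number, and 4 were matched inputs whose own signal was not analysed here. A table of regions with more 5hmC in WT ("WT-higher") and one of regions with more in KO ("KO-higher") were also deposited; which is which was read from the names in their headers, and every WT-higher and KO-higher count here rests on that reading. The labels give neither the knockout allele, the promoter or cell type that drives it, the age of the mice, nor whether libraries came from separate animals, so a p-value here measures only the spread between libraries, which may be technical. Peak lists cannot show whether Tet2 itself was lost, so the genotype rests on the labels.

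TET2 is one of the dioxygenases that oxidise 5-methylcytosine to 5hmC, an intermediate of active demethylation that also persists as a stable mark, often at enhancers and in the bodies of transcribed genes. In germinal centers B cells mutate their antibody genes and are selected, and TET2 is a recurrent target of mutation in blood cancers. Deserts hold few or no coding sequences, but many contain distal enhancers and long non-coding RNA (lncRNA) genes, and those beside developmental regulators can act on them over long distances.

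Among 1023 annotated promoters in deserts (300 bases, 250 before to 50 after the start, belonging to 881 genes), 110 (10.8%) lay under a desert region, against 11.8% of other lncRNA promoters and 8.42% of protein-coding promoters. These 110 lay under 95 regions, of which 11 held a WT-higher region, where 6.56% of all desert regions did. The 4 printed next belong to lncRNA genes and are shown because a desert region found in all 4 libraries and holding a WT-higher region overlapped them. Gm36884 and Gm35079 are covered over all 300 bases. A330076C08Rik and Gm2447 are covered over 238 and 40 bases and lie in the deserts with the 2 highest WT-higher scores, beside Cd83 and Foxo1. The WT-higher region itself covered 86 bases of the Gm36884 promoter, 87 of Gm35079, 34 of A330076C08Rik and 0 of Gm2447. A marked CG therefore need not lie in it. The sequences are from RefSeq (GRCm38.p6), 5′ to 3′ on the gene's strand. Capitals mark each CG dinucleotide, the main place where mammalian DNA is methylated and then hydroxymethylated; the letters CG read the same on both strands.
Gm36884, chr10:125744770-125745069, minus strand: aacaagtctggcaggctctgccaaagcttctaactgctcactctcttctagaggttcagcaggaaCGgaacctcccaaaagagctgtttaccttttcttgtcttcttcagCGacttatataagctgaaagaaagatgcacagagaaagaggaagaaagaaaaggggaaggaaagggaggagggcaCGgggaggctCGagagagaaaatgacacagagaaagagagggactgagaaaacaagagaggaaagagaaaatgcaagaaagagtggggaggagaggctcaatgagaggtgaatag
Gm35079, chr14:72042887-72043186, minus strand: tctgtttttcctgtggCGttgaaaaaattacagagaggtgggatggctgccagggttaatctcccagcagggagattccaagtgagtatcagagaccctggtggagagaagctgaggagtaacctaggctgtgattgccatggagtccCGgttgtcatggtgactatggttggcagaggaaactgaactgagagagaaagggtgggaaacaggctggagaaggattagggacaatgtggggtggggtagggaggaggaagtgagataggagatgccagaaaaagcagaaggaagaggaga
A330076C08Rik, chr13:44216438-44216737, minus strand: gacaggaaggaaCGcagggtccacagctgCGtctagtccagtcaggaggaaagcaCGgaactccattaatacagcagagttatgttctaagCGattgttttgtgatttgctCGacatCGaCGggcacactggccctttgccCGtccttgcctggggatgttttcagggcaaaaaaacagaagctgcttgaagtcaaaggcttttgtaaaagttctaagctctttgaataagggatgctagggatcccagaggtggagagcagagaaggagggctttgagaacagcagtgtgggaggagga
Gm2447, chr3:52739474-52739773, plus strand: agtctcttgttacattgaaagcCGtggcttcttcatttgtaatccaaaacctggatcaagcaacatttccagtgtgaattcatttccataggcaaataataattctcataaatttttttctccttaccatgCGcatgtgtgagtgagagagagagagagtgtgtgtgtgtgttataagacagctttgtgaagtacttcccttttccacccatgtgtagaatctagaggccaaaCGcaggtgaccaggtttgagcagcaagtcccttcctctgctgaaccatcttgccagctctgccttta

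These promoters hold 4, 2, 8 and 3 CG in that order. Desert promoters as a whole had few: a median of 2 CG, against 4 in other lncRNA promoters and 14 in protein-coding promoters. At least 1 CG was present in 85.9% of desert promoters and in 94.8% of all promoters of this length. At least 10 were present in 4.99% and 43.95%. The region over Gm36884 had fold enrichments of 15.1 (KO-2), 8.01 (KO-3), 13.2 (WT-2) and 11.7 (WT-3). All 4 are far above the libraries' desert medians of 5.18, 4.47, 5.69 and 4.97, given in the same order. Over Gm35079 the values were 12.03, 7.06, 13.0 and 9.93, again above every median. Fold enrichment is the authors' value for each peak over its local background and is read only within its own library.

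Of 919 annotated microRNA hairpins, 44 lay in deserts and 1, Mir125b-1, lay under a desert region (36 were within 10 kb of one). MiR-125b is a microRNA known for its effects on blood cell development and for holding back B cell differentiation when in excess. The hairpin lies inside the span of the lncRNA gene Mir100hg, in the desert between Ubash3b, which encodes a phosphatase of lymphocyte receptor signalling, and Gm40514. It is printed because it is the sole hairpin under a region. In the mature strands capitals mark the seed, bases 2 to 8.
Mir125b-1 hairpin, chr9:41581926-41582002, plus strand: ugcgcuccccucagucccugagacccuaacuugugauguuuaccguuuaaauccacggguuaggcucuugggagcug
mmu-miR-125b-5p: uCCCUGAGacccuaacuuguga
mmu-miR-125b-1-3p: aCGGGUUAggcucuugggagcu

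The region over it, chr9:41581856-41582285, had fold enrichments of 4.94 in KO-2, 5.00 in WT-2 and 5.60 in WT-3, and no peak in KO-3. It held no WT-higher region, so its missing peak in 1 KO library is not a called difference. The desert around it held 50 regions, of which 9 (18%) had a WT-higher region.

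5hmC regions were somewhat sparser in deserts than elsewhere and their density fell with distance from genes. Desert territory was 19.1% of the autosomal length between the first and last regions and held 125 regions per Mb, against 136 inside genes and 155 outside genes within 200 kb. Density was 167 per Mb within 10 kb of a gene, 137 at 100 to 200 kb, 131 at 200 to 300 kb and 120 beyond 1 Mb. Assembly gaps and stretches where reads cannot be placed were not taken out of these lengths. Their part in the fall was not tested. Neighbouring desert regions were a median of 4885 bp apart. Of the members, 50914 (88.7%) lay outside every annotated gene, 5581 inside a lncRNA span and 419 inside a pseudogene span.

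**Figure D1:**
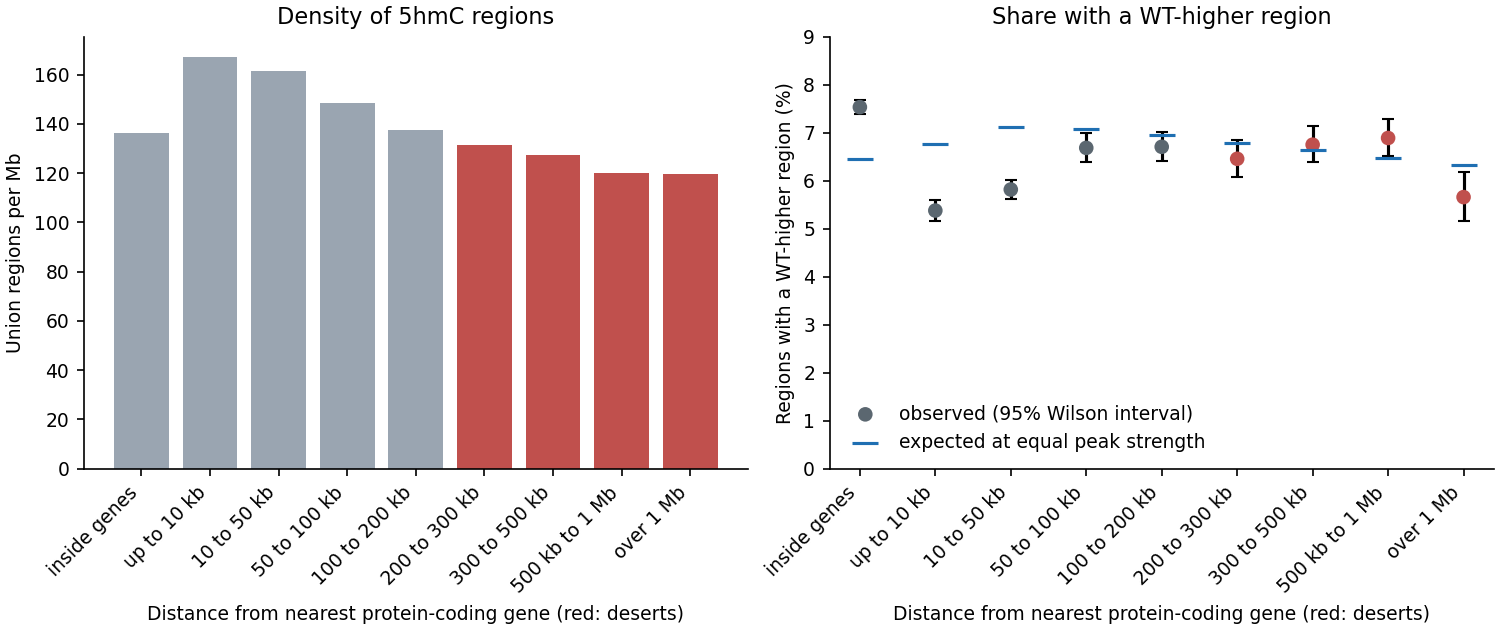
Density of 5hmC union regions (left, regions per Mb) and share with a WT-higher region (right, percent, with 95% Wilson intervals for counting error) by distance from the nearest protein-coding gene, deserts in red and the share expected at equal peak strength as blue bars. Density falls from 167 to 120 per Mb with distance, while the WT-higher share is 5.38% within 10 kb, 7.53% inside genes and 5.66% to 6.89% in the desert classes.

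The 4 peak lists differed in number and shape before any genotype was considered. Autosomal peaks numbered 268502 and 268919 in KO-2 and KO-3 and 259588 and 288705 in WT-2 and WT-3. Peaks of KO-3 were the narrowest (desert median 338 bp, against 394 to 420 bp) and had the lowest fold enrichment. Read totals are not in the peak lists, but the peaks' commonest local background, recovered from their fold and p-value, was 11.6, 10.9, 8.66 and 11.7 fragments, lowest in WT-2. The labelled cell type was checked by the coverage of marker gene spans, which shows 5hmC and not expression: all 7 B cell and all 6 germinal center genes carried peaks (medians of 17.5% and 20.2% of the span), against 6.46% for T cell, 6.41% for myeloid and 4.21% for neuronal genes, with Cd8a and Lyz2 at 0. The part of other cells in the desert regions was not tested.

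A large majority of desert regions were shared by both genotypes. A peak was present in all 4 libraries in 34839 (60.7%), close to the 60.1% of other regions, and 9781 (17.0%) were found in 1 library only. Of desert regions, 78.8% carried a KO-2 peak, 79.5% a KO-3 peak, 73.2% a WT-2 peak and 84.3% a WT-3 peak. Both KO libraries therefore lay between the 2 WT libraries, and the KO minus WT difference of 0.371 percentage points was within their spread (exact two-sided permutation test, p = 1, n = 2 against 2). Its sign depended on the WT libraries: it was -5.19 points without WT-2 and 5.93 points without WT-3. In regions outside deserts the difference was -2.27 points (exact permutation p = 1).

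The share of autosomal peaks lying in deserts was 16.9% (KO-2), 17.2% (KO-3), 16.3% (WT-2) and 16.8% (WT-3). The groups did not overlap, but KO-2 and WT-3 were 16.88% and 16.84%, and the groups overlapped with equal numbers of peaks per library (difference 0.387 points, exact permutation p = 1) and among peaks of at least 5-fold (0.198 points, exact permutation p = 1). The means were 17.03% ± 0.21 in KO and 16.56% ± 0.39 in WT (SD, n = 2 each), a difference of 0.461 points with an exact two-sided permutation p of 0.333, the smallest that 2 against 2 can give. It was 0.183 points without WT-2, 0.738 without WT-3, 0.315 without KO-3, 0.198 at distances over 500 kb and 0.061 when distance was taken from any annotated gene. By bases under peaks the shares were 16.24% and 15.71%, a difference of 0.530 points with the same p of 0.333 by the exact permutation test.

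**Figure D2:**
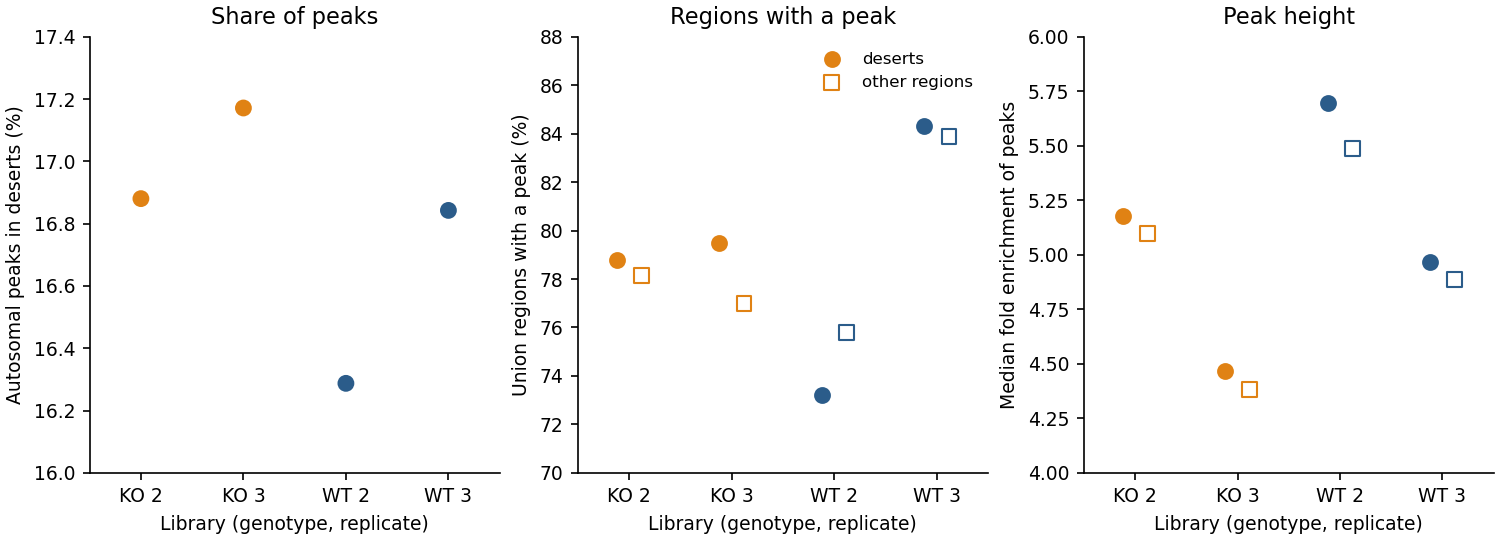
Per library, the percent of autosomal peaks in deserts (left), the percent of union regions with a peak (middle) and the median fold enrichment of peaks (right), with KO in orange and WT in blue, filled circles for deserts and open squares for other regions; the vertical axes do not start at 0. The share of peaks in deserts runs from 16.3% in WT-2 to 17.2% in KO-3, and desert peaks have the higher median fold in all 4 libraries.

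Within each library, desert peaks had a slightly higher fold over background and were slightly narrower than the rest. Their median pileups differed by 1 fragment at most: 66, 54, 56 and 63 fragments against 65, 55, 55 and 63 for other peaks (KO-2, KO-3, WT-2, WT-3). Their median fold enrichment exceeded that of other peaks by 0.080 (KO-2), 0.084 (KO-3), 0.207 (WT-2) and 0.079 (WT-3). The mean difference was 0.112 ± 0.063 (SD, n = 4 libraries), higher in 4 of 4, with an exact two-sided sign-flip p of 0.125, the smallest that 4 libraries allow. This depended on the peaks used: the difference was 0.052 with equal numbers of peaks per library (exact sign-flip p = 0.5), 0.043 with distance taken from any annotated gene (p = 0.25 by the exact sign-flip test) and -0.125 among peaks of at least 5-fold. Desert peaks were narrower by 12 to 15 bp in the 4 libraries, a mean difference of -14 bp (exact sign-flip p = 0.125).

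A WT-higher region was present in 3765 desert regions, 6.56% of them (95% Wilson interval 6.36% to 6.77%, counting error only), where 6.71% of all autosomal union regions had one. The share outside deserts was 6.74%. In bulk DNA, fewer cells with 5hmC at a place and less 5hmC per cell cannot be told apart. Regions of high enrichment carry WT-higher calls more often, so an expected number was computed from the share over all regions in each of 20 bins of peak strength, the highest within-library percentile of fold enrichment. It was 3782 for deserts, a ratio of 0.996. Deserts were thus at the genome-wide share, while regions inside genes stood above expectation (7.53%, ratio 1.17) and those within 10 kb of a gene below it (5.38%, ratio 0.794). Beyond 1 Mb from genes the share was 5.66% (ratio 0.895). On either side of the distance threshold, 6.41% of the 4026 regions at 180 to 200 kb and 7.20% of the 3610 at 200 to 220 kb had a WT-higher region.

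The total combined a low share among weak desert regions with a high one among strong desert regions. Of 8577 members at or below the 20th strength percentile 64 (0.746%) had a WT-higher region, against 3.35% of other regions of that strength. Of 12702 members above the 80th percentile 2555 (20.1%, interval 19.4% to 20.8%) had one, against 15.9% of others (interval 15.6% to 16.1%). Between the 60th and 80th percentiles the shares were 6.17% and 6.22%. In the strongest of the 20 bins, 31.96% of desert regions, 26.8% of regions inside genes and 25.2% of those outside genes within 200 kb carried one. In the weakest bin the shares were 0.672%, 4.84% and 2.38%. The pattern was not particular to the 200 kb cutoff. With a cutoff of 100 kb the shares were 19.7% above the 80th percentile and 1.04% up to the 20th, against 15.5% and 3.49% of the rest. With 500 kb they were 20.4% and 0.465%, against 16.3% and 3.15%. Regions at 100 to 200 kb were not set apart by strength. The order of desert against other regions, above the 80th and up to the 20th percentile, was the same in the 13 alternatives run on these shares. These included the removal of each library's peaks, which changed only the union regions and their strength. The WT-higher table was kept as deposited, so this cannot show how the calls depend on 1 library. Median widths in the strongest bin were 674.5 bp in deserts, 703 bp inside genes and 696 bp between.

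**Figure D3:**
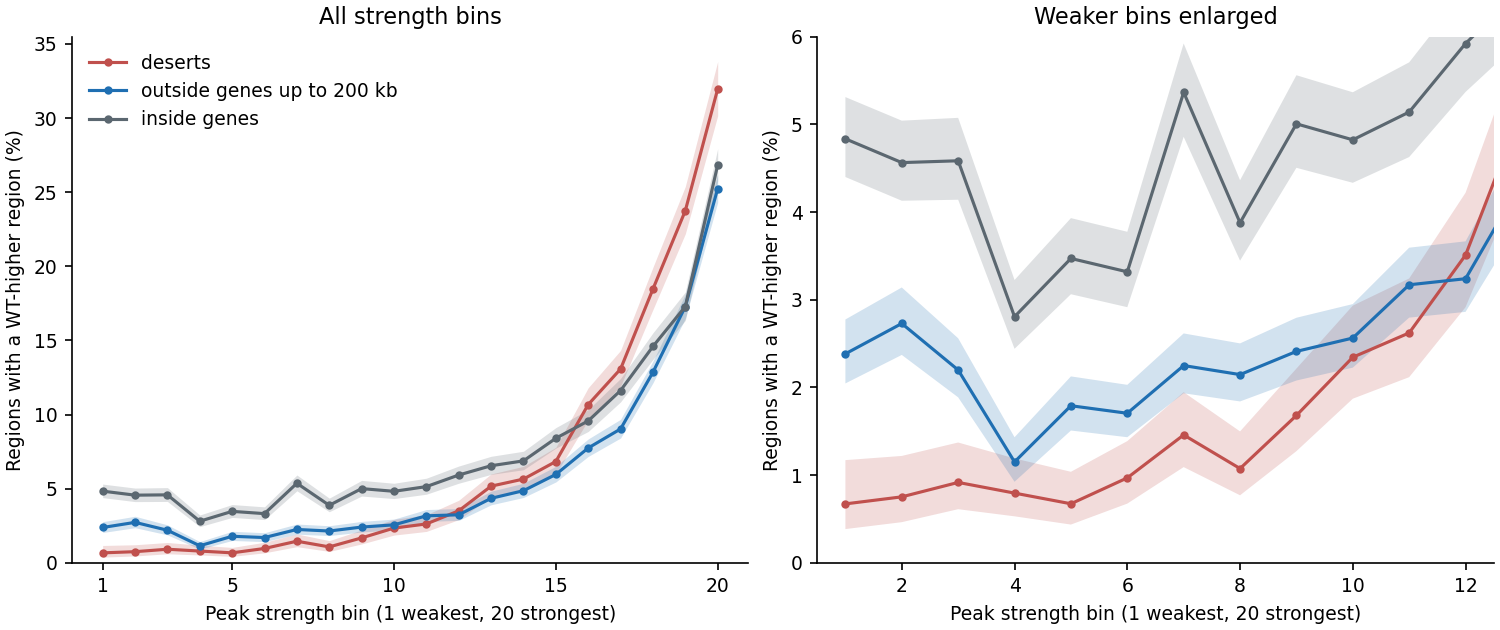
Percent of union regions with a WT-higher region (vertical) in 20 bins of peak strength (horizontal, 1 weakest to 20 strongest) for deserts, regions outside genes within 200 kb, and regions inside genes, with 95% Wilson intervals shaded; the right panel enlarges the weaker bins. Desert regions are lowest in the weakest bin (0.672%) and highest in the strongest (31.96%).

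The number of libraries with a peak moved with the same share. Of members found in all 4 libraries 9.87% had a WT-higher region, and of those found in 1 library 0.460%. At equal strength the relation was not steady. Ratios to the number expected from peak strength among members were 0.983, 1.84, 1.18 and 0.513 for 4, 3, 2 and 1 libraries. Members called in the 2 WT libraries alone numbered 843, and those called in the 2 KO libraries alone 877. Among other regions the numbers were 5719 and 3525. WT-only regions were thus 49.0% of the desert regions found in both libraries of 1 genotype and in neither of the other. They were 88.1% among peaks of at least 5-fold, a cutoff that falls at a different place in each library's list.

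KO-higher regions were rare everywhere: 2 desert regions held one, where 0.00616% of all autosomal union regions did. Of the authors' deposited table, 7 of the 41 autosomal KO-higher regions lay in deserts and 5 of them in no union region at all. The 2 members were chr4:54164852-54165130, between Tmem38b and Zfp462, and chr4:131540839-131541110, between Matn1 and Ptpru. Each had a peak in KO-3 only, with fold enrichments of 3.03 and 2.42, below that library's desert median of 4.47. KO-2 had no peak at either place. By comparison, 3844 of the 24503 autosomal WT-higher regions of the authors' deposited table (15.7%) lay in deserts.

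Summed over 100 kb windows, 5hmC coverage in deserts did not differ detectably between genotypes. Of 24004 windows tested with limma on the log2 scale (bases under peaks, scaled to equal totals, plus 200), 0% passed an adjusted p of 0.05, including 0 of 4564 desert windows; at an unadjusted p under 0.05 there were 177 (3.88%) desert windows and 1074 (4.47%) in all. The median KO minus WT difference was 0.05 in desert windows and 0.01 in others, and 64.5% and 52.6% of them had the higher value in KO. Without scaling both medians were negative, -0.05 and -0.09, so only the difference between desert and other windows kept its sign.

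Among desert windows with less coverage in KO, the smallest p was in Gadd45g–Diras2, where peaks covered 5619 (KO-2), 5733 (KO-3), 8380 (WT-2) and 6983 (WT-3) bases after scaling (log2 difference -0.42, SE 0.11). Gadd45g encodes a stress-response protein. A window of the Cd83–Jarid2 desert had 9281, 7361, 11373 and 10333 covered bases in the same order (-0.38, SE 0.12). Both KO values were below both WT values in each, yet the limma adjusted p was 0.999 for both. The other lower windows lay in Arl6ip6–Gm38481, Tmem38b–Zfp462 and Pcdh20–Pcdh9 (-0.64, -0.56 and -0.53). The higher ones lay in Rasa1–Cox7c, Adamts9–Magi1, Maf–Dynlrb2, Trib2–Lpin1 and Plekhb2–Hs6st1 (0.34 to 0.59), each with an adjusted p of 0.999 in limma.

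With 500 kb windows 4 of 4816 passed genome-wide, 1 of them among the 918 desert windows. The others lay outside deserts and were lower in KO. The desert window was chr1:35000001-35500000 between Plekhb2 and Hs6st1, the latter a heparan sulfate sulfotransferase. Peaks covered 39224 (KO-2), 42205 (KO-3), 33748 (WT-2) and 29048 (WT-3) scaled bases there, so both KO libraries were higher. The log2 difference was 0.38 (SE 0.07, limma adjusted p = 0.0262 over 4816 windows). The same desert held a KO-higher region of the authors' deposited table, chr1:35579136-35579347, outside that window and in no union region.

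The WT-higher share ran over a wide range between individual deserts. Most held few regions, so counting error alone spreads these shares, and whether deserts differed beyond it was not tested. The median desert was 758 kb long and held 48 regions, and 112 deserts together held 50% of all members. Among the 535 deserts with at least 20 members the share ran from 0% to 23.8%, with quartiles at 4.17% and 8.67% and a median of 6.36%, and 34 had none. The deserts with most members were Celf4–Pik3c3 (528), Pcdh20–Pcdh9 (491), Olfm4–Pcdh17 (472), Dsel–Cntnap5a (462) and Cntnap5b–Cdh20 (461), several of them beside genes for neuronal cell adhesion. Their WT-higher shares were 6.63%, 5.30%, 6.14%, 5.41% and 8.03%. The largest numbers of members with a WT-higher region were 37 in Cntnap5b–Cdh20, 35 in Celf4–Pik3c3, 34 in Tenm2–Mat2b, 33 in Zeb2–Acvr2a and 31 each in Nudt12–Efna5 and Celf2–Gata3.

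The deserts of highest share were picked after their values were seen. Prdm1–Prep led with 5 of 21 regions (23.8%, interval 10.6% to 45.1%); Prdm1 encodes Blimp-1, which drives plasma cell differentiation. Eea1–Btg1 followed with 11 of 50 (22.0%, interval 12.8% to 35.2%); Btg1, an antiproliferative gene often mutated in B cell lymphoma, is not in the B cell gene list of this comparison. Foxo1–Cog6 had 11 of 62 (17.7%, interval 10.2% to 29.0%); Foxo1 is a transcription factor of the germinal center dark zone. Ebf1–Clint1 had 11 of 66 (16.7%, interval 9.57% to 27.4%); Ebf1 is a founding transcription factor of the B lineage. Deserts beside Rora (8 of 43), Ubash3b (9 of 50) and Tbx3 (23 of 128) had higher shares than Foxo1–Cog6 and Ebf1–Clint1. They are not in the B cell gene list either, so the top of the ranking was not made up of that list alone.

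In Foxo1–Cog6 a peak was found at 45 and 45 of the 62 regions in KO-2 and KO-3 and at 52 and 48 in WT-2 and WT-3. In Eea1–Btg1 the numbers were 36 and 36 of 50 in KO and 42 and 39 in WT. Both deserts had more regions in each WT library than in either KO library, as did 26 of the 535 deserts with at least 20 members (4.86%); the reverse held in 16 (2.99%). In Prdm1–Prep the numbers were 17 and 18 of 21 in KO and 15 and 17 in WT. By the positions of their peaks, the regions with a called difference there were found in both genotypes.

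**Figure D4:**
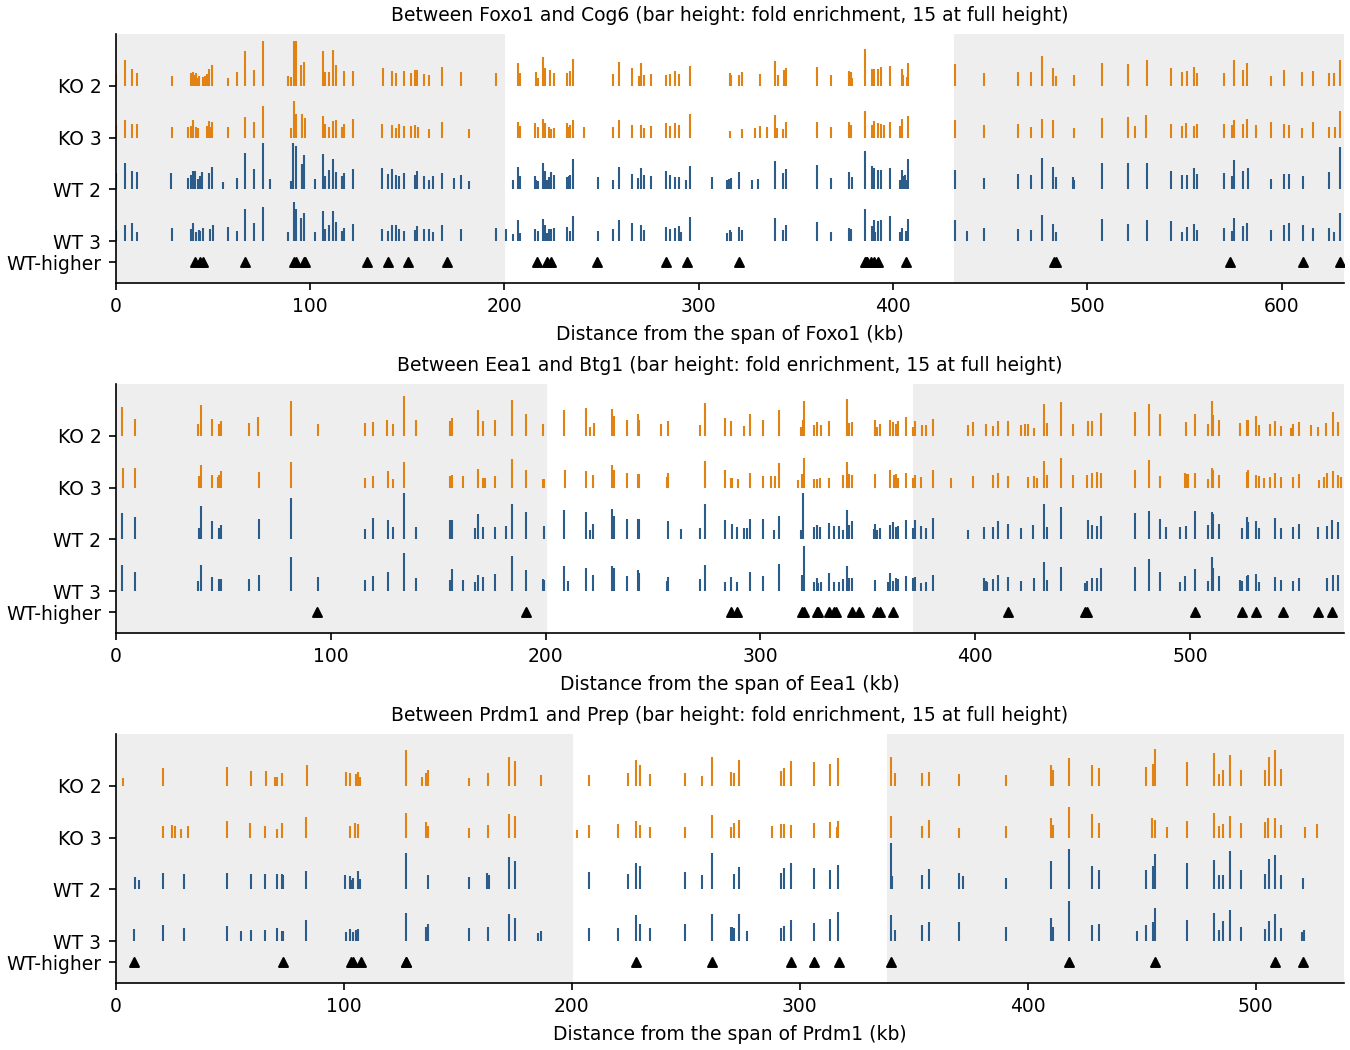
Peaks of the 4 libraries (bars, height proportional to fold enrichment up to 15) and the authors' WT-higher regions (triangles) in 3 deserts, by distance in kb from the first flanking gene; grey marks the 200 kb beside each gene, outside the members. In the white spans, WT-higher regions fell on 11 of 62 union regions beside Foxo1, 11 of 50 between Eea1 and Btg1 and 5 of 21 beside Prdm1.

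A list of 46 B cell genes gave 16 deserts, flanked by 14 of the genes. The list was chosen with earlier results of these data known, so the shares below describe it and are not independent support. Of their 1805 regions 148 (8.20%, interval 7.02% to 9.56%) had a WT-higher region, against 6.51% in the other 699 deserts, and 127 were expected from peak strength among members (ratio 1.16). Of the 13 with at least 20 members, 10 were above the median desert. In the 9 of these deserts up to 1 Mb long the share was 11.0% (42 of 382, ratio 1.55), against 6.80% in other deserts of that length. Prdm1–Prep, Foxo1–Cog6 and Ebf1–Clint1 held 27 of those 42, and the other 6 had 15 of 233 (6.44%, ratio 0.866). Without those 3 deserts, a step chosen after their values were seen, the list as a whole had 121 of 1656 (7.31%, ratio 1.03). In the 7 longer ones it was 7.45% (106 of 1423), against 6.41%. Among regions more than 500 kb from a gene the shares were 6.42% beside B cell genes and 6.49% elsewhere.

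Members of that list went both ways. Myc–Gsdmc, which holds distal enhancers of the proto-oncogene Myc, had 22 of 205 (10.7%), and A1bg–Myc on the other side 9 of 97 (9.28%). Zeb2–Acvr2a had 33 of 432 (7.64%). Bcl11a–Fancl had 10 of 223 (4.48%) and Cxcr4–Thsd7b 2 of 56 (3.57%), below the median desert; Cxcr4 is the chemokine receptor that places cells in the dark zone. Bcl6–Lpp, beside the master regulator of the germinal center program, had 1 of 5, too few to read.

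Some deserts were in more than 1 list: 3 of the B cell deserts (28 of 267 regions, 10.5%) were also in a second list, and the other 13 had 120 of 1538 (7.80%). Deserts beside developmental transcription factors (52) had 281 of 3555 (7.90%, ratio to expectation among members 1.07), and those beside adhesion and synapse genes (108) had 1091 of 17574 (6.21%, ratio 0.989). Deserts beside olfactory or vomeronasal receptors (3) had 2 of 67. Deserts in no list had 6.55%. Members inside lncRNA spans had 7.87% (439 of 5581), against 6.48% of those in no annotated gene.

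Antigen receptor loci fall in deserts here because RefSeq does not class their V, D, J and C segments as protein-coding. Within 50 kb of such a segment, 9 of 513 members (1.75%, interval 0.926% to 3.30%) had a WT-higher region, 0.339 of the number expected from strength among members. The desert holding Igh (Adam6a–Zfp386) had 5 of 131 and the one holding Tcra (Gm36448–Dad1) 1 of 107, both below the median desert. Without these members the desert share was 6.603%.

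**Figure D5:**
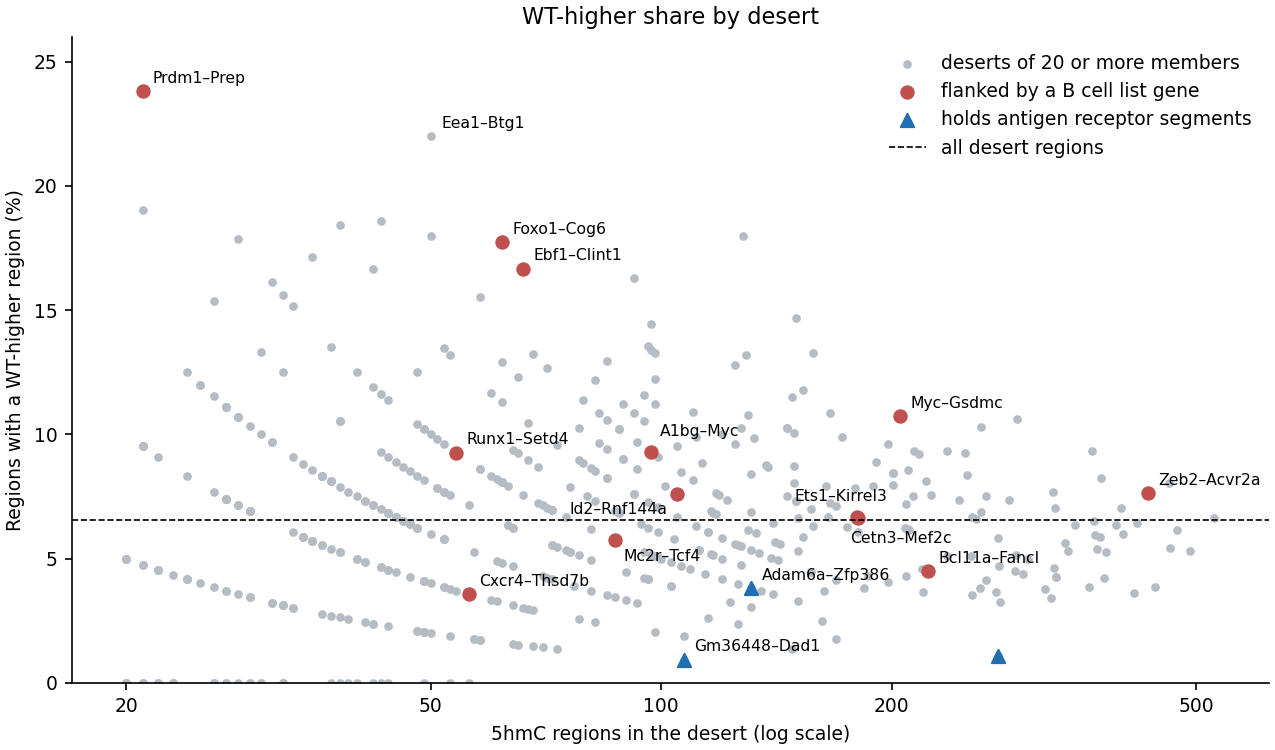
Percent of regions with a WT-higher region (vertical) against the number of 5hmC regions (horizontal, log scale) for the 535 deserts with at least 20 members; red marks deserts flanked by a B cell list gene, blue triangles those with antigen receptor segments, and the dashed line all desert regions (6.56%). Prdm1–Prep (23.8%), Foxo1–Cog6 (17.7%) and Ebf1–Clint1 (16.7%) are near the top, and Gm36448–Dad1 (0.935%) is near the bottom.

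The single region with the highest WT-higher score in the authors' deposited table (12.1; the scale of that score is not stated) was chr13:44312269-44312956, 418 kb from a gene between Cd83 and Jarid2. Cd83 is an activation marker of light zone B cells and Jarid2 a subunit of Polycomb repressive complex 2. Its fold enrichments were 3.98 (KO-2), 2.70 (KO-3), 5.69 (WT-2) and 4.18 (WT-3). Only the WT-2 value reached its library's desert median. The next, with a score of 10.7 in the authors' deposited table, was chr3:52756112-52756842 between Foxo1 and Cog6. It had no peak in either KO library and fold enrichments of 4.76 and 3.39 in WT-2 and WT-3. In Ebf1–Clint1, chr11:45246490-45247011 (score 7.80 in the authors' deposited table) likewise had peaks in both WT libraries, at 3.73 and 2.52, and none in KO.

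Other high scores were in regions present in every library. In Tenm3–Aga (score 10.2 in the authors' deposited table) the fold enrichments were 5.82 and 3.79 in KO and 9.21 and 5.68 in WT-2 and WT-3; the KO-3 value alone was below its library's desert median. In Klhl29–Apob (10.1 in the authors' deposited table) they were 7.17 and 5.19 in KO and 6.42 and 5.12 in WT, all above their own libraries' desert medians.

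The strongest desert regions also held WT-higher calls. The 5 with the highest mean fold percentile over the 4 libraries lay in Sdk2–Rpl38, Myc–Gsdmc, Nup35–Zfp804a, Mn1–Cryba4 and Sorcs1–Ins1, and all but the first held a WT-higher region. The Myc–Gsdmc region, chr15:62442437-62443639, had fold enrichments of 18.8 and 11.9 in KO and 20.5 and 17.1 in WT. The widest members were of another kind: chr9:3009098-3038427, at the assembled start of its chromosome, spanned 29330 bp with folds of only 1.48 to 1.97 over local backgrounds of 304 to 401 fragments. Its neighbour chr9:2999918-3008918 was alike, whereas chr15:19708212-19718842 between Cdh10 and Cdh12 (10631 bp) had folds of 9.44 to 14.2. The members farthest from any gene, 3 regions about 2265 to 2269 kb away between Pcdh20 and Pcdh9, held no WT-higher region.

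WT-higher calls were more frequent beside another one. When the next region was within 10 kb, it had a WT-higher region in 9.75% of cases after a member that had one and in 6.40% after one that did not. The same shares outside deserts were 11.5% and 6.66%. By chromosome the members' share ran from 4.98% on chromosome 19 to 7.85% on chromosome 10.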

How the data were processed

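5hmC was measured by hMeDIP-seq in 4 immunoprecipitated libraries, 2 per genotype. BWA 0.7.12-r1039, MACS2 2.1.0.20151222 and GRCm38.p3 are named in the submitters' processing notes, without settings; peaks were listed per library. The deposited peak score is the whole part of 10 times the −log10 q (in 99.9999% of peaks), and the deposited lists also give a fold enrichment (ratio) and −log10 p and −log10 q per peak. The authors' WT-higher and KO-higher tables give a deposited score whose scale is not stated; their direction was read from the names per the file headers.

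From these, union regions, distances to 20558 protein-coding gene spans (RefSeq GRCm38.p6, leaving out 333 entries of alternate or unplaced scaffolds; positions are the same in all patches of GRCm38) and overlaps of at least 1 bp were computed with Python 3.11.15, numpy 2.4.6, pandas 2.3.3 and scipy 1.17.1. Whole pileups were recovered from fold and p for at least 99.9973% of peaks in each library (tolerance 0.001). Windows were tested with limma 3.58.1 in R 4.3.3 with Benjamini-Hochberg adjustment, on windows averaging 500 or more covered bases, after a test on data with known answers. Library depth is unknown; Wilson intervals (95%) cover counting error only. Replicate numbers were not taken to pair libraries. Members and gene lists were chosen with earlier results of these data known. Named are the deserts with most members or most WT-higher members, and the members of highest score, strength, distance or width. Named too are the windows of smallest p, and others said to be picked on their values. Some items that this rule names are not reported here. Alternatives were other distances, thresholds, strength measures, window settings and the removal of each library.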

Additional observations from a re-analysis of the deposited data

How the results depend on the processing

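The 100 kb window result for deserts held in the alternatives that kept all 4 libraries and that window size. In them 0 desert windows passed limma's adjusted threshold, with another pseudocount, no filter, no scaling or the replicate block. Without 1 library a genotype is left with a single library, so counts of passing windows from those fits are not given and do not show stability. Windows of 500 kb gave 4 that passed genome-wide and 1 in deserts. With the replicate block 23 windows passed genome-wide and 0 in deserts; the numbers showed little pairing (r = 0.074 across 24003 windows). The KO minus WT share of desert regions with a peak reversed to -14.9 points among peaks of at least 5-fold, and without 1 library ran from -5.19 to 5.93. The desert minus other median fold reversed to -0.125 at 5-fold. The share of WT-only among genotype-only regions was 50.3% at 100 kb, 88.1% at 5-fold, 44.6% with equal numbers of peaks, and 36.3% to 72.9% without 1 library, where a genotype with 1 library left counts as "only" on a single peak, so that range compares unlike sets. For the other reversals the cause was not tested. The 5-fold cutoff was the same for all libraries, and it lay below the desert median fold of KO-2 (5.18) and WT-2 (5.69). It lay above that of KO-3 (4.47) and WT-3 (4.97). KO and WT shares under that cutoff therefore compare unlike parts of the lists.

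The WT-higher share of desert regions was 6.77% with equal numbers of peaks, 11.5% at 5-fold, 2.80% for scores of at least 5, and 6.65% to 6.98% without 1 library (chosen after seeing the data); outside deserts it was 6.97%, 10.4% and 2.77% in the first 3 settings. The ratio to expectation was 1.13 at 5-fold. Above the 80th strength percentile the share was 27.2% at 5-fold, 8.42% for scores of at least 5 and 20.1% to 22.0% without 1 library. Up to the 20th it was 1.04% at 100 kb, 0.465% at 500 kb, 0.399% for distance from any gene, 2.69% at 5-fold, 0.396% for scores of at least 5 and 0.807% to 1.01% without 1 library. Without 1 library only the peaks changed and the deposited WT-higher table was kept, so those values do not test the calls. Desert regions kept the higher share at the strong end and the lower at the weak end in all 13 alternatives each, which were added after seeing the data. The alternatives for the next 2 shares were added then too. The B cell share was 6.42% at 500 kb, 13.4% at 5-fold and 3.77% for scores of at least 5. The antigen receptor share was 3.85% at 5-fold and 0.390% for scores of at least 5. The share with a peak in every library was 61.1% at 100 kb, 59.4% at 500 kb, 61.3% with equal numbers, 59.7% for distance from any gene, 59.3% with 50% cover, 47.3% at 5-fold and 62.0% to 64.8% without 1 library.

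With 2 libraries per genotype no exact test can pass 0.05, the depth of each library is unknown, and the deposited differential tables carry no replicate values, so shares of WT-higher regions have counting error only.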
